A study of Homo sapiens with 8 samples.

Results

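PDCD4, PIK3IP1, PIK3R3 and IP6K2 are 4 genes that act on protein synthesis, phosphoinositide 3-kinase (PI3K) signalling or inositol phosphate metabolism, and each had 1 RFX7 binding region in the peak list of each treatment. The genes were chosen by name, and their regions by position: a summit within 50 kb of either end of the gene on GRCh38. This gave 4 of the 505 regions listed for DMSO and 4 of the 622 listed for Nutlin-3a, so 8 of 1127 in all. No gene had a second region within that distance.

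RFX7 belongs to the RFX transcription factors, which recognise the X-box, a DNA element made of paired inverted arms. Its binding was measured by ChIP-seq (sequencing of DNA recovered with an RFX7 antibody) in HCT116, a long-established cell line from a human colorectal carcinoma in which p53 is functional. The cells were exposed for 24 h to 10 µM Nutlin-3a, which stabilises p53 by blocking MDM2, or to the solvent DMSO. Each treatment had 2 RFX7 immunoprecipitates and 2 inputs, 8 samples in all. All groups are the same unmodified line as far as the labels say, so the data describe 1 cell line at 1 time and dose. The processed files used here are 1 list of regions per treatment, with no value per replicate. In these files differences between treatments cannot be set against replicate error, and none was tested. Depth is unknown, because the lists carry no read totals.

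The 4 proteins work at different steps of growth control. PDCD4 binds the RNA helicase eIF4A and keeps it out of the complex that starts cap-dependent translation, and it is destroyed after phosphorylation by the S6 kinase downstream of mTORC1. PIK3IP1 is a transmembrane protein that binds the catalytic subunit of PI3K and lowers its activity. PIK3R3 encodes a regulatory subunit of class IA PI3K, which holds the catalytic subunit and brings it to phosphorylated receptors. IP6K2 transfers a phosphate onto a phosphate group of inositol hexakisphosphate, which forms a pyrophosphate, and it has been linked to cell death and to p53. In the p53 response, RFX7 is known from published work as an intermediate between p53 and a set of growth-restraining genes.

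At 3 of the 4 genes, PDCD4, PIK3R3 and IP6K2, both regions lay over an annotated transcription start, while both PIK3IP1 regions lay inside the gene, downstream of its starts. The stretches before the bound starts of those 3 genes are shown because they fall wholly inside the bound region in both lists. They are RefSeq sequence on GRCh38.p14, written 5′ to 3′ on the gene's strand. Capitals mark 6-base matches, on either strand, to the X-box arms GTTGCC and GTTACC or to GTTGCT and GTTACT, which each differ from one of these by 1 base. The last pair was added after the sequences had been seen. The stretches are chr10:110871678-110871927 on the plus strand for PDCD4 and chr3:48717222-48717471 on the minus strand for IP6K2. That of PIK3R3 is chr1:46133027-46133286 on the minus strand (250 bases before the start and 10 from the start base on).
PDCD4: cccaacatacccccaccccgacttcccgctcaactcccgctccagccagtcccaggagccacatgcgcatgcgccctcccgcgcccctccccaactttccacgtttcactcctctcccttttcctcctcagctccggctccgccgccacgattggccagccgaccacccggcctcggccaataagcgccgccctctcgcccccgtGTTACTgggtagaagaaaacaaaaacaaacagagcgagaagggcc
PIK3R3: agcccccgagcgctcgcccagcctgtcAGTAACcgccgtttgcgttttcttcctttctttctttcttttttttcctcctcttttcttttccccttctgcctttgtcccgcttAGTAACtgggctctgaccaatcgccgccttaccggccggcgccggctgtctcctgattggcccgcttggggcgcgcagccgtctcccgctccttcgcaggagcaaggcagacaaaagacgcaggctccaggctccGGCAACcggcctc
IP6K2: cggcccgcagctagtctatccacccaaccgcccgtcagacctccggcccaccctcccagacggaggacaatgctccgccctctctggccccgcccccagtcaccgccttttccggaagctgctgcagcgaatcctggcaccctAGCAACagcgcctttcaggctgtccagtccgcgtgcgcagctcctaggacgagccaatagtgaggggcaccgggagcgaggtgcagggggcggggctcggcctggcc

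The search for paired arms, described below, found none at these starts, but it did not cover pairs with GTTGCT or GTTACT. The single matches differed from gene to gene. IP6K2 carried GTTGCT on the strand opposite to the gene, printed here as AGCAAC, at chr3:48717323-48717328, beginning 107 bases before the start. PIK3R3 carried GTTGCC, printed as GGCAAC, across the start itself at chr1:46133034-46133039, from 3 bases before the start. It also carried GTTACT at chr1:46133169-46133174 and chr1:46133254-46133259, which begin 138 and 223 bases before the start. PDCD4 had no match to GTTGCC or GTTACC and 1 match to GTTACT at chr10:110871883-110871888, beginning 45 bases before the start. The centre of the DMSO region lay 43 bp from the IP6K2 match, 54 bp from the PDCD4 match and 32, 53 and 188 bp from the 3 PIK3R3 matches. For the centre of the Nutlin-3a region these distances were 131 bp, 104 bp and, in the same order of PIK3R3 matches, 192, 107 and 28 bp. From the DMSO summits, the distances were 123 bp (IP6K2), 54 bp (PDCD4) and, in that order of PIK3R3 matches, 123, 38 and 97 bp. From the Nutlin-3a summits they were larger, at 389 bp, 265 bp and 598, 513 and 378 bp. A match is a description of letters and not a mapped binding site.

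Such short matches are frequent, so they were counted over all RefSeq promoter windows. Each was 300 bases long (250 before a start and 50 from the start base on). Of 35116 windows, 12.2% held GTTGCC, 6.46% held GTTACC, 12.8% held GTTGCT and 6.91% held GTTACT, in each case on either strand. A complete X-box, searched as GTTNCC and GGNAAC with 0 to 3 bases between them, was found in 0.74%, and in 0 of the 10 windows of the 4 genes. Among the 40 windows (39 genes, non-coding genes included) whose start lay under a region in both lists, 22 held GTTGCT, or 55%. In the same 40 windows, 10 held GTTGCC (25%), 7 held GTTACT (17.5%), 3 held GTTACC (7.5%) and 0 held a complete X-box. The 40 include the start windows of PDCD4, PIK3R3 and IP6K2. IP6K2 is among the 22 with GTTGCT, and PDCD4 and PIK3R3 are among the 7 with GTTACT. Both motifs were added after these sequences had been seen, so their shares among bound windows are no independent support. The pattern GTTNCC, where N is any base, includes GTTGCC and GTTACC and was found in 42.5% of the bound windows and 45.4% of all windows. No window covers the PIK3IP1 region, so its sequence was not examined. The 2 promoter windows of PIK3IP1 hold 1 GTTNCC match between them, outside the region. IP6K2 has 1 GTTNCC match after its start, at chr3:48717183-48717188, under both regions. It lay 97 bp (DMSO) and 9 bp (Nutlin-3a) from their centres, and 17 and 249 bp from their summits.

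IP6K2 was bound at its only start in the table, with the highest enrichment of the 4 genes. The gene (Entrez 51447) covers chr3:48688003-48717221 on the minus strand and starts at 48717221. The DMSO region was chr3:48717044-48717521, 478 bp wide, with a fold enrichment of 17.8 (−log10 q 121, where q is the region's p-value after correction over the genome). It ranked 4 of 505 by fold enrichment, the authors' ratio of the signal at a region to its local background. The Nutlin-3a region was chr3:48716832-48717557, 726 bp wide, with a fold enrichment of 24.1 (−log10 q 200.3) and rank 7 of 622. The IP6K2 region thus stood among the first 10 of either list. Without replicate values and depths, a difference between the values of the 2 lists cannot be read as a change with treatment. The summit was placed 19 bp (DMSO) and 285 bp (Nutlin-3a) into the gene, while the centre of the region lay 61 bp before and 27 bp after the start. The nearest end of another protein-coding gene, PRKAR2A, was 27389 bp from the DMSO summit.

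PIK3R3 was bound at an internal group of starts, 41768 bp (DMSO) and 42243 bp (Nutlin-3a) downstream of its most distant start. The gene (Entrez 8503) covers chr1:46040140-46174901 on the minus strand, and RefSeq places 6 starts in it. One lies at 46174901, and the other 5 lie between 46130673 and 46133036. Both regions fell on this second group. The DMSO region, chr1:46132906-46133542, was 637 bp wide and covered the start at 46133036, with its summit 97 bp before that start. The Nutlin-3a region, chr1:46132554-46133575, was 1022 bp wide and covered the 3 starts at 46132629, 46132795 and 46133036. Measured from the ends of the gene, PIK3R3 has no region within 5, 10 or 20 kb, so a search from gene ends at those distances passes over this site. The start of a non-coding gene on the plus strand, LOC101929626 at 46133371, also lay under both regions, so the bound sequence faces 2 genes in opposite directions. The read-through gene P3R3URF-PIK3R3 covers the same stretch. The DMSO region was enriched 11.2-fold (−log10 q 58.7) and held rank 17 of 505. The Nutlin-3a region was enriched 7.25-fold (−log10 q 125) and held rank 74 of 622.

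PDCD4 was bound across its only start in the table. The gene (Entrez 27250) covers chr10:110871928-110900006 on the plus strand and starts at 110871928. The DMSO region, chr10:110871651-110872227, was 577 bp wide, was enriched 8.44-fold (−log10 q 43.9) and ranked 31 of 505. The Nutlin-3a region, chr10:110871555-110872424, was 870 bp wide, was enriched 7.46-fold (−log10 q 85.6) and ranked 71 of 622. The summits lay 97 and 308 bp before the start, and the centres lay 11 and 61 bp after it. The nearer end of PDCD4-AS1, a non-coding gene, is 927 bp from the DMSO summit, and the nearest end of another protein-coding gene, BBIP1, is 26899 bp away.

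PIK3IP1 was the only 1 of the 4 genes bound away from a start. The gene (Entrez 113791) covers chr22:31281593-31292534 on the minus strand, with starts at 31292488 and 31292534. The DMSO region, chr22:31290608-31291030, was 423 bp wide, enriched 5.78-fold (−log10 q 21.3) and at rank 70 of 505. The Nutlin-3a region, chr22:31290545-31291070, was 526 bp wide, enriched 6.98-fold (−log10 q 93.5) and at rank 80 of 622. The centres lay 1669 and 1681 bp downstream of the nearer start, inside the gene, and whether that is exon or intron was not examined. The nearest other protein-coding gene end, that of LIMK2, was 10790 bp from the DMSO summit, and that of the non-coding gene LOC105372997 was 2074 bp away.

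**Figure D1:**
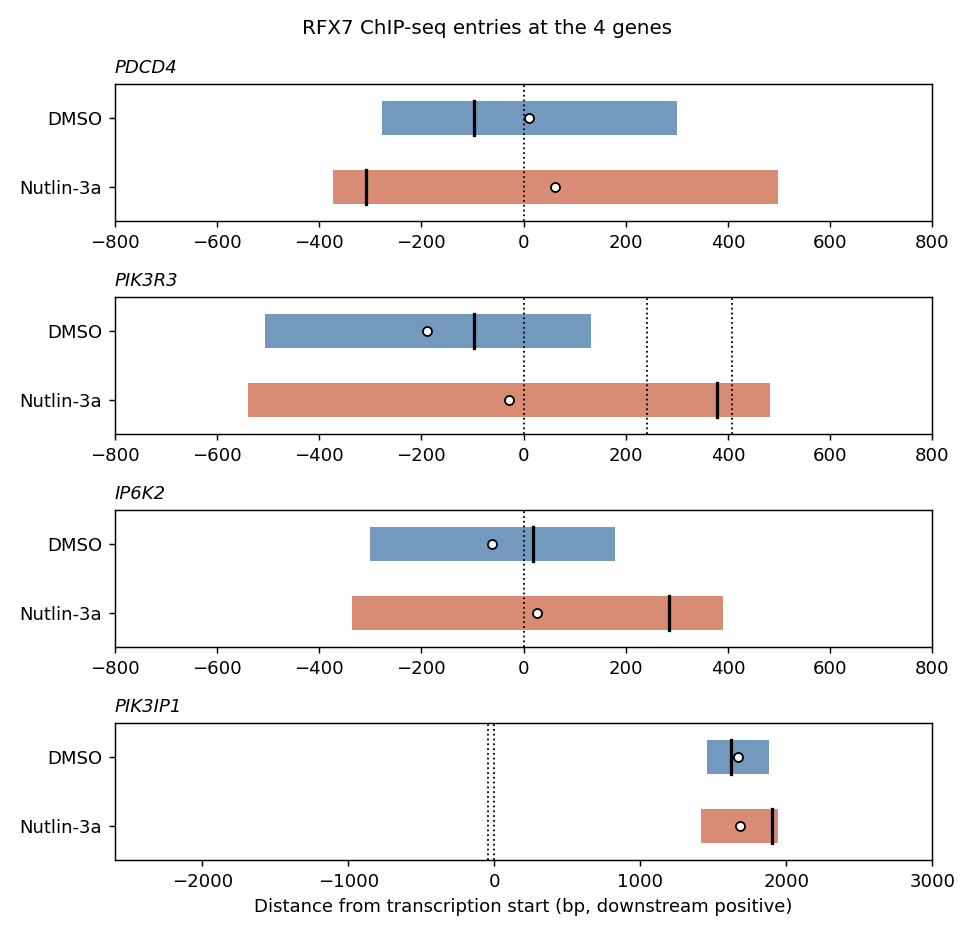
Extent of the RFX7 regions (bars) at the 4 genes in the DMSO and Nutlin-3a lists, against distance in bp from a transcription start in the direction of transcription. Dotted lines are RefSeq starts, black ticks the deposited summits and white circles the centres, and in PDCD4, PIK3R3 and IP6K2 both bars span a start while in PIK3IP1 both lie downstream, with centres at 1669 and 1681 bp.

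Having a region near a gene was rare. Of 20037 protein-coding genes, the DMSO list placed a summit within 50 kb of an end at 407 (2.03%) and the Nutlin-3a list at 609 (3.04%). Both lists had one at 340 genes (1.70%), against 4 of 4 here. Within 5 kb, both lists had a summit at 126 genes (0.629%), against 3 of 4 here, PIK3R3 being the exception. A start lay under a region of both lists in 27 of the 15843 protein-coding genes with a start in the table (0.170%), and PDCD4, PIK3R3 and IP6K2 were 3 of these. The 4 genes were chosen with earlier results of these data known, so these shares describe how selective the measure is and are not support for the choice.

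In both lists the order by fold enrichment began with IP6K2 and ended with PIK3IP1. In the DMSO list the 4 regions were spread over ranks 4 to 70, and all 4 exceeded the list's median fold enrichment of 2.86. In the Nutlin-3a list IP6K2 stood at rank 7, and PDCD4, PIK3R3 and PIK3IP1 lay close together at ranks 71, 74 and 80, above the list's median of 3.28. Neighbours in these orders have no replicate spread to be compared with. Regions over a protein-coding start numbered 30 (DMSO) and 58 (Nutlin-3a). Their median fold enrichment, 6.59 and 6.04, was well above that of the whole lists, so a value above the list median was common at starts. Among them IP6K2 ranked 2 and 3, PIK3R3 ranked 6 and 21, and PDCD4 ranked 10 and 20. Ranked by −log10 p, all 4 stood lower in the DMSO list, at 42 (IP6K2), 112 (PIK3R3), 147 (PDCD4) and 224 (PIK3IP1). In the Nutlin-3a list the ranks by −log10 p were 25 (IP6K2), 65 (PIK3R3), 106 (PIK3IP1) and 113 (PDCD4), so PDCD4, second of the 4 by fold enrichment, came last and behind both PIK3R3 and PIK3IP1.

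**Figure D2:**
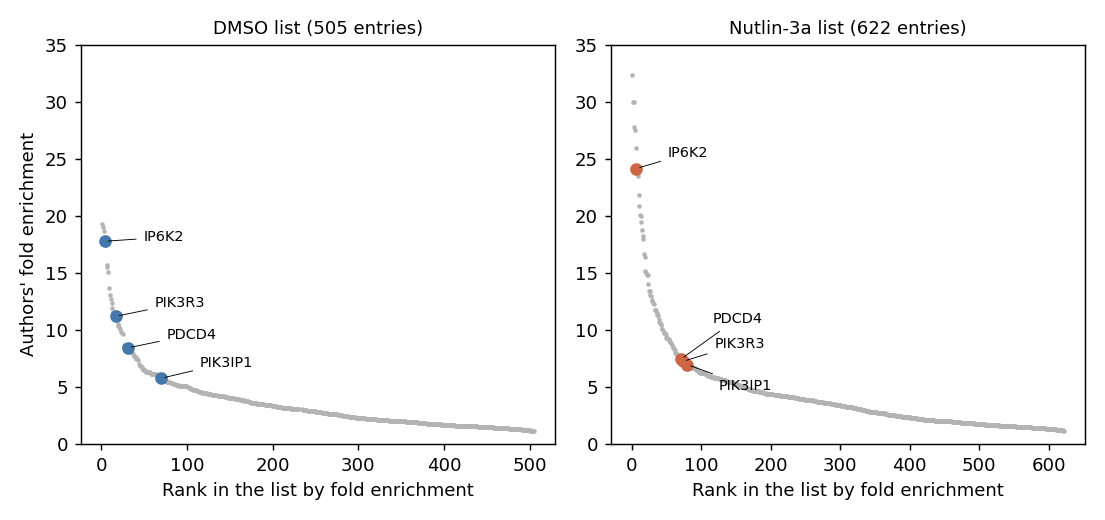
Authors' fold enrichment of every region (grey) against its rank in the DMSO list (left) and the Nutlin-3a list (right), with the 4 genes marked in colour. IP6K2 stands at ranks 4 and 7, and PDCD4, PIK3R3 and PIK3IP1 are spread from 17 to 70 on the left and lie between 71 and 80 on the right.

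The 4 regions stood alone. The nearest other region of the DMSO list was 2080 kb from PDCD4, 2483 kb from PIK3R3, 4379 kb from IP6K2 and 10158 kb from PIK3IP1, whereas the median over the list was 3.21 kb. In the Nutlin-3a list the nearest other region was 290 kb from IP6K2, 660 kb from PDCD4, 2483 kb from PIK3R3 and 7279 kb from PIK3IP1, against a median of 4.27 kb. A distance of over 250 kb was found for 164 of 505 DMSO regions (32.5%) and 212 of 622 Nutlin-3a regions (34.1%). The 4 genes thus belong to the minority of isolated regions in each list.

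Each DMSO region lay wholly inside the Nutlin-3a region of the same gene. The Nutlin-3a region was 1.24 times as wide at PIK3IP1, 1.51 times at PDCD4, 1.52 times at IP6K2 and 1.60 times at PIK3R3. This was common to the data: of 352 pairs formed by mutual best overlap, 81.8% had the wider region after Nutlin-3a and 71.3% had the DMSO region enclosed, and the median width ratio was 1.22. Width depends on the threshold and depth of each list, whose part was not tested. The added width was unequal on the 2 sides. At PIK3R3 the Nutlin-3a region reached 352 bp further at lower coordinates and 33 bp further at higher ones, and at IP6K2 212 and 36 bp, so that in both genes it reached further into the transcribed side. At PDCD4 the region reached 96 bp further upstream and 197 bp further downstream, and at PIK3IP1 63 and 40 bp further at lower and higher coordinates.

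**Figure D3:**
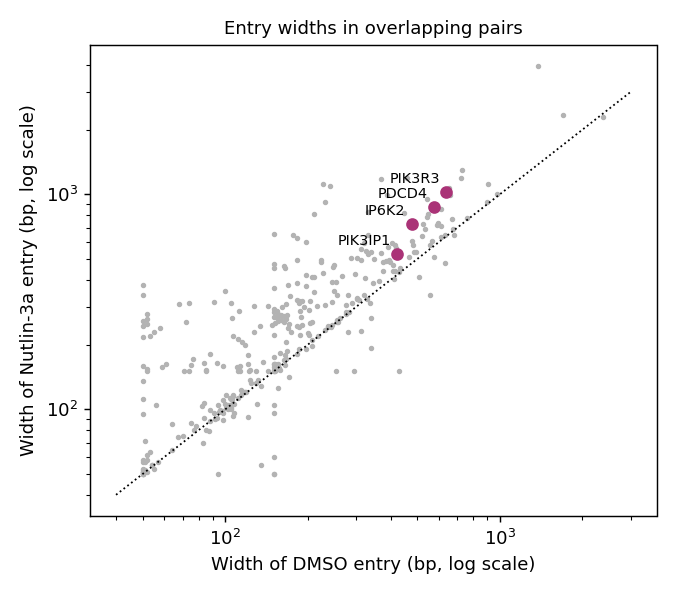
Width in bp of the DMSO region (x) and the Nutlin-3a region (y) of each of the 352 overlapping pairs (grey) on log axes, with the 4 genes in colour and equal widths as a dotted line. The 4 genes lie above the line, as do most pairs.

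Summits agreed less well than extents. The summits of the 2 lists were 211 bp apart at PDCD4, 266 bp at IP6K2, 284 bp at PIK3IP1 and 475 bp at PIK3R3, against a median of 14 bp over all pairs. The centres were 50, 88, 12 and 160 bp apart in the same order of genes, against a median of 17.5 bp over all pairs. Those of PDCD4, IP6K2 and PIK3R3 were thus also farther apart than the median. The width of a pair limits both gaps, and most regions were narrower than those of the 4 genes. The median width was 151 bp (DMSO list) and 182 bp (Nutlin-3a list). Regions over a protein-coding start were wider, with medians of 403.5 bp (DMSO) and 390 bp (Nutlin-3a). Pairs of like width were not compared, so larger gaps are not shown to be particular to these genes. All 4 Nutlin-3a summits sat near the lower-coordinate edge of the region, at 7.47% (PDCD4), 7.79% (PIK3IP1), 10.2% (PIK3R3) and 14.3% (IP6K2) of its width, and the 4 DMSO summits sat at 31.2 to 61.9%. MACS2, the peak caller named in the submitters' processing notes, defines both the enrichment and its p through the number of fragments at the summit, which can therefore be solved for. A whole number of fragments came out for PDCD4 (81 fragments over a local background of 8.71), PIK3IP1 (56 over 8.86) and PIK3R3 (88 over 6.94) in the DMSO list. None came out for IP6K2 in the DMSO list or for any of the 4 genes in the Nutlin-3a list. Whole numbers were found for 402 of 505 DMSO regions (79.6%) and 393 of 622 Nutlin-3a regions (63.2%). Among regions over a protein-coding start they were less frequent, at 18 of 30 (DMSO) and 24 of 58 (Nutlin-3a). Regions without a whole number had their summits at a median of 28.8 and 28.7% of the width, against 48.8 and 46.7% with one. For the 5 entries without a whole number, the summit, fold enrichment and p-value need not stem from a single calculation, so their summits and ranks are approximate.

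The other genes of the same pathways were examined in 4 lists, with 103 entries in all, drawn from general knowledge at a time when earlier results of these data were known. Without the 4 genes themselves they held 99 genes, of which 11 (11.1%, DMSO) and 13 (13.1%, Nutlin-3a) had a region within 50 kb, against 2.03 and 3.04% of all protein-coding genes. These shares are a description and no independent support. In the list of PI3K subunits and inhibitors, 3 of 25 genes had a region in either list: PIK3R3, PIK3IP1 and PIK3R2, which encodes another regulatory subunit. PIK3R2 had a DMSO region inside the gene at chr19:18157063-18157510 (rank 67) and a Nutlin-3a region over it at chr19:18156909-18157729 (rank 101). A second, weaker Nutlin-3a region lay beside it (fold enrichment 3.61, rank 280). None of the listed catalytic subunits had a region within 50 kb.

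Among 34 genes of AKT and mTORC1 signalling, 6 (DMSO) and 7 (Nutlin-3a) had a region within 50 kb. DDIT4, a stress-induced inhibitor of mTORC1, was bound over its start at chr10:72273502-72274112 under DMSO (fold enrichment 10.2, rank 21) and chr10:72273288-72274142 under Nutlin-3a (fold enrichment 18.3, rank 16). AKT1S1, which encodes the mTORC1 inhibitor PRAS40, had regions 492 and 252 bp from a gene end, at ranks 93 and 75. SESN3, of the sestrin family that restrains mTORC1, had 2 regions in each list. One was intragenic, at 1328 and 1126 bp from the nearer end (ranks 122 and 43). The other lay outside, 21951 and 21957 bp away (ranks 55 and 42). GSK3B, a kinase inhibited by AKT, had a region in the Nutlin-3a list alone, 479 bp from a gene end (fold enrichment 6.10, rank 108). The remaining regions of this list were nearer to another gene: those counted for GSK3A (nearest to CIC), SESN2 (ATP5IF1), STK11 (MIDN, DMSO list alone) and EIF4EBP2 (LRRC20, Nutlin-3a list alone).

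Among 22 enzymes of inositol phosphates and pyrophosphates, IP6K2 was the only 1 with a region within 5 kb, and IP6K1 and IP6K3 had none within 50 kb. The regions within 50 kb of NUDT4 (both lists) and NUDT3 (Nutlin-3a list), which encode diphosphoinositol polyphosphate phosphatases, were nearer to UBE2N and LOC124901225. Among 22 genes of PDCD4 partners and translation initiation, 4 had a region within 50 kb in each list, PDCD4 itself and 3 others. MKNK2, a kinase of the cap-binding protein eIF4E, had a region inside the gene at chr19:2042103-2042489 under DMSO (fold enrichment 8.41, rank 32) and at chr19:2041964-2042953 under Nutlin-3a (fold enrichment 5.82, rank 119). Further regions, 10400 and 10528 bp from an end of MKNK2, were nearer to MOB3A (ranks 191 and 125). EIF4A1, which encodes the helicase that PDCD4 binds, and EIF4B had regions 36153 and 37313 bp away in the DMSO list, nearer to FXR2 and SPRYD3. Of the genes outside the 4, a region was thus nearest to the listed gene at 5 in the DMSO list (PIK3R2, AKT1S1, DDIT4, SESN3 and MKNK2) and at 6 in the Nutlin-3a list, where GSK3B was added. The share of all protein-coding genes under this nearest-gene rule was not counted. The same genes were those with a region within 5 kb, 5.05% (DMSO) and 6.06% (Nutlin-3a) of the 99. Among all protein-coding genes these shares were 0.764 and 1.08%. They too are a description and no independent support.

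**Figure D4:**
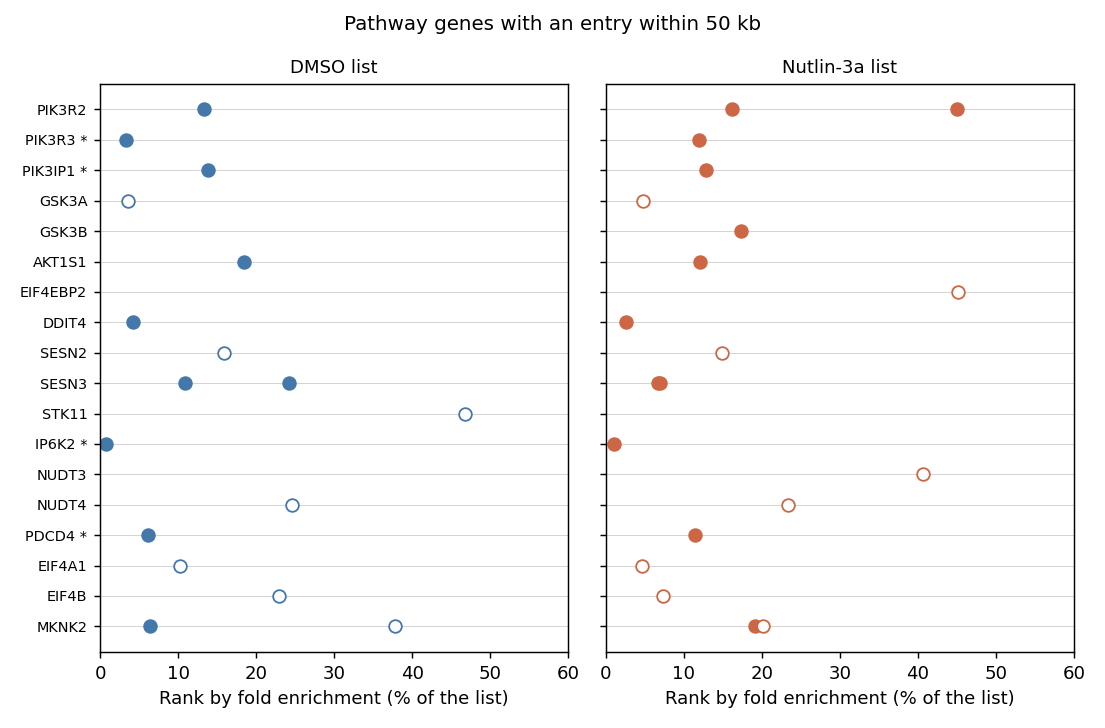
Rank by fold enrichment, as a percentage of the list, of each region within 50 kb of a pathway gene, in the DMSO list (left) and the Nutlin-3a list (right). Filled circles are regions for which the listed gene is the nearest protein-coding gene, open circles are regions nearer to another gene, and asterisks mark PDCD4, PIK3IP1, PIK3R3 and IP6K2.

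The genes ranked most like each of the 4 were taken from the 126 protein-coding genes with a summit within 5 kb in both lists, by the sum of the differences in rank over the 2 lists. IP6K2 was closest to KDM4A (ranks 8 and 8, sum 5), TOB2 (7 and 11, sum 7) and FANCG (10 and 9, sum 8). PDCD4 was closest to YPEL2 (48 and 77, sum 23) and to RMND5A and RNF103-CHMP3, which share 1 region (46 and 56, sum 30). PIK3IP1 was closest to TOB1 (65 and 64, sum 21), then YPEL2 (sum 25) and AKT1S1 (sum 28). PIK3R3 was closest to PDCD4 (sum 17), followed by YPEL2 (sum 34) and CIC (18 and 30, sum 45). PIK3R3 itself was not among the candidates, since it has no summit within 5 kb of an end, although its sum with PDCD4 is below that of YPEL2. With 2 lists, this likeness rests on 2 values per gene.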

How the data were processed

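RFX7 ChIP and input samples of HCT116 cells were grouped by the sample titles. The authors deposited 1 narrowPeak list per treatment, without header lines. Each entry has a position, a summit offset, a whole-number score, a fold enrichment, and −log10 p and −log10 q, all as deposited. Per the submitters' processing notes, the build was hg38 and the tools included MACS2 2.2.7.1 and bedtools 2.29.2, with no settings or order. Whether replicates were pooled is not given in the sources used here, so precision per sample is unknown.

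Distances ran from the summit to the nearer gene end in the RefSeq gene table (GRCh38.p14), and starts came from RefSeq promoter windows of the same build. Entries overlapping by at least 1 bp counted as shared. Pileups were solved from fold enrichment and p with a tolerance of 0.001 in −log10 p. Functions were tested on simulated data (Python 3.11.15, numpy 2.4.6, pandas 2.3.3, scipy 1.17.1). No tests between treatments were made. Alternatives were other distances, thresholds, overlap rules, rankings and motifs. Genes were named by rule: the 4 genes, their neighbours, list genes with an entry within 50 kb, and the 3 genes nearest in rank. The members and lists were chosen with earlier results of these data known. All 103 list genes matched the gene table.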

Additional observations from a re-analysis of the deposited data

How the results depend on the processing

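No paired analysis was possible because the lists hold no values of single replicates, and so no replicate could be left out either. Of 141 alternative values, 96 were near the one reported, meaning a count within 1.5 times, or a percentage or a rank (as a share of the regions ranked) inside the 95% Wilson interval of the reported one. All 4 genes had a region under each treatment at a −log10 q minimum of 5 or 10, at 100 kb, and with the midpoint or any base in place of the summit. Of these settings, only the midpoint could have removed a gene. The lowest −log10 q of their regions was 21.3, and the 100 kb and any-base rules include every summit within 50 kb. Such fixed outcomes are counted among the 96 and are no sign of robustness. PIK3R3 fell to 0 regions at 5, 10 and 20 kb from its ends, in both lists. The number of genes with a shared region went from 4 to 0 when summits had to lie within 100 bp, and was 4 with overlap of 50% of both regions. Midpoints within 100 bp, added after seeing the data, gave 3. The percentage of coding genes with a region in both lists was 0.629 at 5 kb, 0.744 at 10 kb, 1.01 at 20 kb, 2.71 at 100 kb and 1.22 at −log10 q of at least 10. At both 5 and 10 kb, genes with a region numbered 3 (DMSO) and 4 (Nutlin-3a) for AKT and mTORC1 signalling, 1 and 1 for inositol phosphate enzymes (IP6K2 itself, 0 others), and 2 and 2 for PDCD4 partners (PDCD4 itself and 1 other). Of all coding genes, 0.764% (DMSO) and 1.08% (Nutlin-3a) had a region within 5 kb, and 0.918 and 1.32% within 10 kb. GTTGCC occurred in a window of 1 of the 4 genes, GTTACC in 0, GTTNCC in 3 and a complete X-box in 0. GTTGCT and GTTACT, added after seeing the sequences, occurred in 1 and 2. Arms of 6 bases are too short to place a binding site.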
